A study of Mus musculus with 12 samples.

Results

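Chemoattractant receptors are the surface receptors by which a macrophage reads gradients of chemokines, bacterial peptides and lipid or protein danger signals. Most couple to inhibitory G proteins and steer migration, and the set a cell carries changes between the blood, the tissue and an inflamed site. Bacterial products sensed through TLR4 are known to alter this set in macrophages, formyl peptide receptors among them. The 9 receptor genes described here were given as a list of names, and all 9 were rows of the deposited expression table, which holds 43278 gene symbols. They are Ccr1, Ccr2, Ccr3, Ccr7, Ccrl2, Cx3cr1, Cxcr4, Fpr1 and Fpr2.

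RNA was sequenced from thioglycolate-elicited peritoneal macrophages (PMφs) of WT C57BL/6J mice, males and females aged 8 to 12 weeks, lavaged 4 days after the injection and kept adherent for 18 h. Cells pooled from several mice were divided among 4 conditions with 3 libraries each: control PMφs with neither agent, PMφs loaded for 24 h with 100 µg/ml human medium oxidized low-density lipoprotein (oxLDL), PMφs given 10 ng/ml ultrapure LPS, and PMφs given oxLDL and then LPS (oxLDL+LPS). How long LPS was left on these 12 cultures is not given in the sources used here. An elicited population is a mixture, so in these bulk libraries fewer cells of a type and less RNA per cell cannot be told apart.

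The values are normalized counts: read counts that the authors divided by 1 factor per library and rounded. The factors imply between 16725738 and 26178068 counted reads per library, with overlapping ranges in the 4 groups (18617986 to 21804429 in control and 18675645 to 26178068 in LPS libraries). The macrophage genes Cd68 (35765 to 51371) and Csf1r (7579 to 17280) were high in every library. On the same list, Adgre1 was 5252 to 8561 in control and 12995 to 29157 in LPS libraries. Mertk was 2199 to 2845 and 4905 to 8006, and Fcgr1 was 496 to 919 and 2264 to 8081. Cd68, Csf1r, Lyz2 and Itgam overlapped between control and LPS libraries. Of markers of granulocytes, the neutrophil gene Ly6g and the eosinophil gene Prg2 were at 0 in all 12 libraries, and S100a9 and Epx did not exceed 1. Mmp8, on the neutrophil list, was 131 to 1661, highest in replicate 3 of each group, and Siglecf, on the eosinophil list, was 315 to 383 in control, 180 to 303 in oxLDL, 99 to 124 in LPS and 55 to 104 in oxLDL+LPS libraries. Markers of mesothelial cells and fibroblasts, summed over 6 genes, were lower in the 4 libraries numbered 3 (3377 to 3827) than in those numbered 1 (11731 to 19708). All 6 genes used to check the LPS treatment (Tnf, Il1b, Il6, Nos2, Il12b and Cxcl10) were higher with LPS, both without and with oxLDL.

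In the GRCm38 annotation, 5 of the 9 genes lie on chromosome 9. Ccr1 (chr9:123962124-123968692, minus strand), Ccr3 (chr9:124021972-124031689, plus strand) and Ccr2 (chr9:124101950-124113557, plus strand) are neighbours in a chemokine receptor cluster, and Ccrl2 (chr9:111054486-111057519) and Cx3cr1 (chr9:119901616-120069879) stand apart from it, both on the minus strand. Fpr1 (chr17:17876471-17883940, minus strand) and Fpr2 (chr17:17887824-17893952, plus strand) are transcribed away from each other, with starts 3884 bases apart. Cxcr4 is at chr1:128588199-128592293 and Ccr7 at chr11:99144196-99155077, both on the minus strand. The Fpr2 model overlaps Fpr3 on the same strand, and the Cx3cr1 model overlaps other genes on both strands. These models are from GENCODE M21, whereas the authors counted with the older vM4, so overlaps and exon lengths may differ from those counted. The strand setting of the counting is not given in the sources used here, so the values of Fpr2 and Cx3cr1 are less certain than the others in this respect.

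The promoters of the 3 genes that gained most with LPS and of the gene that lost most are printed because these 4 carry the main contrast in the data. Each is the 250 bases 5′ of a RefSeq start in GRCm38.p6, read 5′ to 3′ on the gene's strand, at chr9:111057519-111057768 for Ccrl2, chr17:17883940-17884189 for Fpr1, chr17:17887574-17887823 for Fpr2 and chr1:128592300-128592549 for Cxcr4. Capitals mark matches, on either strand, to 4 motifs: the NF-κB consensus, AP-1 (TGANTCA), the interferon-stimulated response element (GAAA, any 2 bases, GAAA) and the PU.1 core (GAGGAA). RefSeq gives 3 windows for Ccrl2, and the 1 shown starts farthest upstream.
Ccrl2: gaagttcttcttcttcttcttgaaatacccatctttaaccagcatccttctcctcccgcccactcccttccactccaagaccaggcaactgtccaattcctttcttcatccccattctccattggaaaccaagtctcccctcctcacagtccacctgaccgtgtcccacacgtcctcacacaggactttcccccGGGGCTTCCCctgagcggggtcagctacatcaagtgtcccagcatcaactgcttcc
Fpr1: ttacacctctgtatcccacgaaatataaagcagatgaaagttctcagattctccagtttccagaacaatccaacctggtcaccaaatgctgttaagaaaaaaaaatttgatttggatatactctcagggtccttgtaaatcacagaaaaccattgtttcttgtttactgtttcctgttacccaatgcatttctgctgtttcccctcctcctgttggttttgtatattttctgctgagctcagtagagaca
Fpr2: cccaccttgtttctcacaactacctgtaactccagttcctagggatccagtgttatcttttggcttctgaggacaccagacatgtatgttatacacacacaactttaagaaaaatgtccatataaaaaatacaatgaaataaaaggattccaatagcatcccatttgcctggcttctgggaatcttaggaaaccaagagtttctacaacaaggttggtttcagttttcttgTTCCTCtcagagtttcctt
Cxcr4: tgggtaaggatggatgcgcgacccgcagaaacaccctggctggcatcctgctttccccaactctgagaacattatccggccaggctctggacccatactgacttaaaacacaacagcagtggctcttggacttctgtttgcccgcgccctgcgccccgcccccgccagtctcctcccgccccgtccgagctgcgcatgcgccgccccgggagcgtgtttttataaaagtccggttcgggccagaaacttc

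The Ccrl2 window held an NF-κB match, GGGGCTTCCC, at positions -56 to -47 from the start, a motif found in 7.25% of all 32851 promoter windows of this length. The other 2 Ccrl2 windows held none of the 4 motifs. The Fpr2 window held a PU.1 core on the opposite strand, TTCCTC, at -19 to -14, and this core was in 23.3% of windows. The Fpr1 and Cxcr4 windows held none of the 4 motifs, as did those of Ccr2 and Cx3cr1. The Ccr1 window held an NF-κB match and a PU.1 core, and the Ccr3 window an NF-κB match and an overlapping PU.1 core with an AP-1 match nearby. AP-1 was in 6.75% of windows and the interferon element in 2.98%, and the latter was in none of the 8 members' windows. These are letters in a window and not measured sites. Windows were found for 8 of the 9 genes, without Ccr7.

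In resting cells the receptors spanned more than 3 orders of magnitude. On the scale of normalized counts per kilobase of exon, Cxcr4, the receptor for Cxcl12 that retains leukocytes in the bone marrow, was highest (930.31 to 1491.7 across the 3 control libraries). It was followed by Ccrl2, an atypical receptor that holds chemerin at the cell surface and is not known to signal, at 593.533 to 842.186, and by Ccr1, a receptor for Ccl3, Ccl5 and Ccl9, at 286.622 to 471.232. These 3 ranges did not overlap. Cx3cr1 and Ccr2 were far lower, with overlapping ranges and means of 18.0 and 11.2 per kilobase. The means of Ccr7, Fpr2, Fpr1 and Ccr3 lay between 0.713 and 3.54 per kilobase, and neighbours among these 4 overlapped. With LPS the order became Ccrl2 (7505.39 to 13898.8 per kilobase), Fpr2, Fpr1, Ccr1, Cxcr4 and Ccr7, and then Ccr2, Cx3cr1 and Ccr3. Fpr2 and Fpr1 overlapped there, as did Fpr1 and Ccr1.

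**Figure D1:**
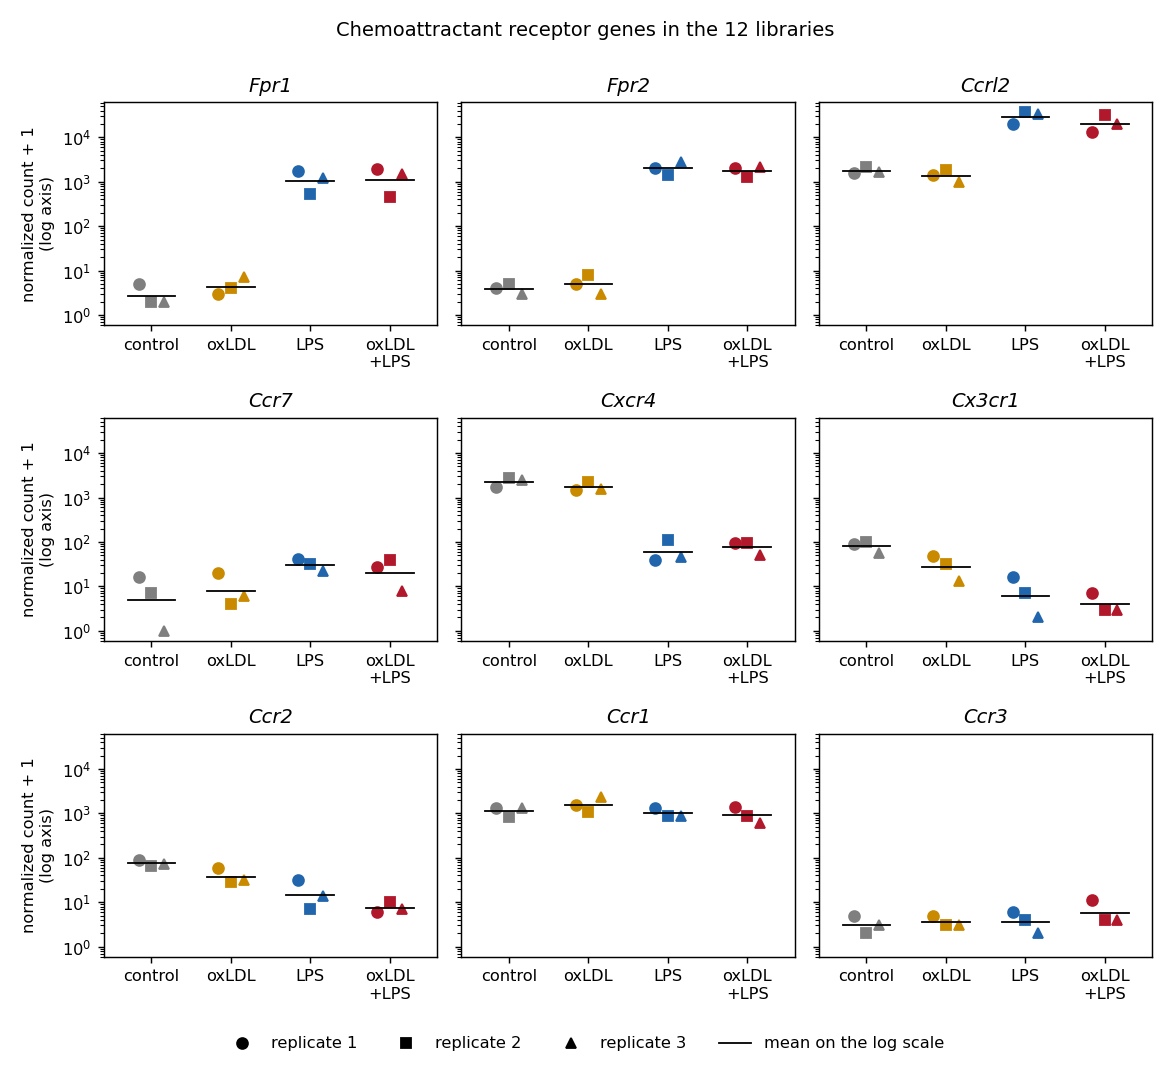
Normalized count + 1 of each of the 9 receptor genes on a log axis, by condition, with 1 symbol per replicate number and a line at the mean on the log scale (n = 3 libraries per group). Fpr1, Fpr2 and Ccrl2 sit higher in every LPS library than in any library without LPS, and Cxcr4 sits lower.

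LPS was compared with control PMφs to ask how the receptor set changed on TLR4 stimulation. Genes had to reach 10 in 3 or more of the 6 libraries to be tested. Of the 9 receptor genes 8 did so, and 7 passed the test, 4 higher and 3 lower. The test was limma on log2(normalized count + 1), with Benjamini-Hochberg adjusted p under 0.1 over all genes. By the same rule 61.7% of the 13006 genes tested were called, 31.4% higher and 30.3% lower, so a high count of calls was the rule across genes. Rescaling all libraries to equal totals moved the median of all genes by -0.48 on the log2 scale and the share of higher calls from 50.9% to 23.1%, but each of these 7 members kept its direction and its call. Fpr1, Fpr2 and Ccr7 passed the filter only through the LPS libraries, and Ccr2 and Cx3cr1 only with the control libraries, so whether these 5 could be tested leaned on the group in which each was high. Each of the 7 had groups that did not overlap, as did 63.2% of all genes tested.

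The largest changes were in the formyl peptide receptors, which bind N-formylated peptides of bacteria and mitochondria. Fpr1, the high-affinity receptor, was 4, 1 and 1 in the control libraries and 1746, 521 and 1216 in the LPS libraries. The groups were far apart, and the lowest LPS value was in replicate 2. The log2 fold change was 8.58 ± 0.52 (SE; adjusted p = 7.95e-06). These values and the estimated factors implied 7 reads in control and 3050 in LPS libraries. They gave a ratio of 568 with a 95% counting interval of 275 to 1414, which covers counting error only. Fpr2, which also binds serum amyloid A and annexin A1, was 3, 4 and 2 in control and 2086, 1419 and 2744 in LPS libraries. Its log2 fold change was 9.005 ± 0.293 (adjusted p = 4.06e-07), and the ratio of implied reads was 642 (359 to 1287). With control values this low the fold depended on the pseudocount, and with 5 in place of 1 it was 7.24 for Fpr1 and 7.98 for Fpr2 on the log2 scale. Both genes are also known from neutrophils. The sum of 8 neutrophil markers was 245 to 1364 in control and 257 to 752 in LPS libraries, most of it Mmp8. Ly6g and S100a9 were at 0 in the LPS libraries. The others moved both ways. S100a8 was 31 to 37 in control and 74 to 178 in LPS libraries, and Camp was 0 and 1 to 5. Cxcr2 was 38 to 43 in control and 1 to 2 in LPS libraries, and Ltf was 6 to 25 and 1 to 2. Their part in the Fpr1 and Fpr2 results was not tested.

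Ccrl2 started from a high level and reached the highest of the 9. It was 1542, 2188 and 1681 in control and 19499, 36109 and 33674 in LPS libraries. The lowest LPS library, replicate 1, was still well above every control library. The ratio of means was 16.5 and the log2 fold change 4.01 ± 0.25 (adjusted p = 7.99e-06). Ccr7, the receptor for Ccl19 and Ccl21 that takes dendritic cells to lymph nodes, stayed low. It was 15, 6 and 0 in control and 41, 31 and 21 in LPS libraries. The groups did not overlap, and the log2 fold change was 2.68 ± 0.93 (adjusted p = 0.0419). Without LPS replicate 1 it was 2.46 and did not pass (adjusted p = 0.112). Its size leaned on control replicate 3, the library at 0: without that library it was 1.55 (adjusted p = 0.0390), and with a pseudocount of 5 it was 1.76. The ratio of implied reads was 4.36 (2.79 to 7.04). Among 8 dendritic cell markers, Flt3 was at 6 or less in every library, whereas Ccl22 was 3 to 14 in control and 509 to 2044 in LPS libraries. Clec9a, on the same list, was lower with LPS, at 32, 15 and 37 in control and 8, 4 and 4 in LPS libraries. Fscn1 was 1329, 965 and 289 in control and 2554, 1792 and 1733 in LPS libraries. The 8-gene sum was 368 to 1438 and 3116 to 3872, most of it Fscn1 and, with LPS, Ccl22. Its part in the Ccr7 result was not tested.

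Of the genes that fell, Cxcr4 lost most. It was 1682, 2697 and 2496 in control and 38, 108 and 45 in LPS libraries, a ratio of 36.0 between the group means. All LPS libraries were far below the control libraries, with replicate 2 the highest of each group, and the log2 fold change was -5.27 ± 0.38 (adjusted p = 1.88e-05). Cx3cr1, the fractalkine receptor of patrolling monocytes and many tissue macrophages, was 91, 98 and 54 in control and 15, 6 and 1 in LPS libraries. Its log2 fold change was -3.71 ± 0.71 (adjusted p = 0.00302), and the groups did not overlap. Ccr2, the Ccl2 receptor that brings monocytes out of the bone marrow, was 89, 65 and 73 in control and 30, 6 and 13 in LPS libraries. It fell by 2.39 ± 0.51 on the log2 scale (adjusted p = 0.00504). The sum of 4 monocyte markers moved the other way, from 218 to 562 in control to 822 to 836 in LPS libraries, with Ly6c2 at 0 or 1 in control and 32 to 296 in LPS libraries. Its part in the Ccr2 and Cx3cr1 results was not tested.

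Ccr1 was 1335, 812 and 1308 in control and 1288, 883 and 862 in LPS libraries, and the groups overlapped. The log2 fold change was -0.18 ± 0.23 (adjusted p = 0.549). With libraries rescaled to equal totals it was -0.66 and passed (adjusted p = 0.0562), against a shift of -0.48 in the median gene. Ccr3, the eotaxin receptor of eosinophils, was between 1 and 10 in all 12 libraries and did not pass the filter in any comparison. Its highest value was in replicate 1 of oxLDL+LPS, and the largest ratio of implied reads, 2.07 for oxLDL+LPS against oxLDL, had a counting interval of 0.848 to 5.36. No difference in Ccr3 was detected, and at this depth one within such an interval could have been missed.

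LPS was also compared within oxLDL-loaded cells, in 6 libraries that the comparison above did not use. Cells were pooled and divided among the 4 conditions, so this comparison is not independent of the first. Of the 8 genes tested 6 passed, 3 higher and 3 lower, each in its direction above, where 54.5% of 12883 genes were called, 28.1% higher and 26.3% lower. Of these 6, Fpr1 and Fpr2 passed the filter only through the oxLDL+LPS libraries and Ccr2 and Cx3cr1 only through the oxLDL libraries. Across all genes 51.7% of the calls were higher, or 23.4% after rescaling to equal totals, which moved the median of all genes to -0.41. Fpr1 was 2, 3 and 6 in oxLDL and 1955, 450 and 1517 in oxLDL+LPS libraries, again lowest in replicate 2, with a log2 fold change of 7.98 ± 0.58 (adjusted p = 3.81e-05). Fpr2 was 4, 7 and 2 against 2036, 1299 and 2152, a change of 8.50 ± 0.38 (adjusted p = 3.79e-06). Neither pair of groups overlapped, and with a pseudocount of 5 the changes were 7.02 and 7.62. Ccrl2 was 1393, 1858 and 1009 in oxLDL and 12901, 31343 and 20065 in oxLDL+LPS libraries, a change of 3.87 ± 0.34 (adjusted p = 0.000100), with replicate 1 again the lowest of the LPS-treated libraries.

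Cxcr4 was 1501, 2265 and 1519 in oxLDL and 92, 93 and 50 in oxLDL+LPS libraries, a log2 fold change of -4.50 ± 0.28 (adjusted p = 1.65e-05). Cx3cr1 was 48, 31 and 12 against 6, 2 and 2 and changed by -2.78 ± 0.61 (adjusted p = 0.00775). Ccr2 was 57, 28 and 30 against 5, 9 and 6 and changed by -2.32 ± 0.39 (adjusted p = 0.00244). All 3 genes were lower in every oxLDL+LPS library than in any oxLDL library, and 57.6% of all genes had groups that did not overlap, in either direction. Ccr7 was 19, 3 and 5 in oxLDL and 26, 38 and 7 in oxLDL+LPS libraries, and the groups overlapped. Its change of 1.38 ± 0.79 did not pass (adjusted p = 0.193), and without oxLDL+LPS replicate 3 it was 2.05 and passed (adjusted p = 0.0638). Ccr1 was 1548, 1085 and 2335 in oxLDL and 1383, 864 and 617 in oxLDL+LPS libraries, lower in each of the 3 replicate numbers but with overlapping groups. Its change of -0.80 ± 0.35 missed the threshold (adjusted p = 0.101). It passed with the replicate number as a block (adjusted p = 0.0771), where 63.4% of genes were called, and also without oxLDL replicate 2 (adjusted p = 0.0572) or oxLDL+LPS replicate 1 (adjusted p = 0.0328). It shrank and did not pass without oxLDL replicate 3 (-0.52, adjusted p = 0.272) or oxLDL+LPS replicate 3 (-0.53, adjusted p = 0.268), or with the block and without number 3 (-0.25, adjusted p = 0.169), so its size rested on replicate 3. Rescaling to equal totals gave -1.19 (adjusted p = 0.0253).

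**Figure D2:**
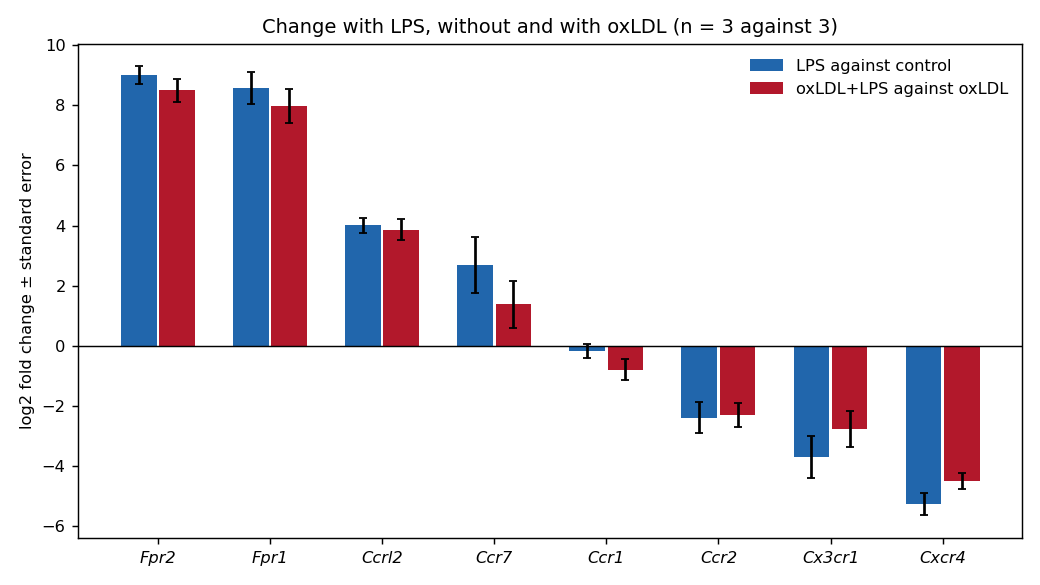
Log2 fold change with LPS of the 8 receptor genes tested, in cells without oxLDL and in oxLDL-loaded cells, with bars from 0 and error bars of 1 standard error (n = 3 against 3 libraries). Fpr2, Fpr1 and Ccrl2 stand highest and Cxcr4 lowest in both, and the Ccr1 bars are the shortest.

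oxLDL was compared with control cells to ask what lipid loading alone did. In the fit of 6 libraries none of the 5 members tested was called, and neither was any of the 12734 genes tested (0%), although 379 had an unadjusted p under 0.05. The cells of an experiment were pooled and divided among the conditions, and libraries with the same replicate number deviated from their group means together, so the fit with the number as a block is given beside it. In that fit all 5 members passed, 1 higher and 4 lower, where 4.7% of all genes were called, 1.79% higher and 2.91% lower. Each of the 5 moved 1 way in every replicate number, as did 17.5% of all genes upward and 19.3% downward. Without replicate 2 the blocked fit called only Cx3cr1 among the members (adjusted p = 0.0850), and 129 genes in all.

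Cx3cr1 differed most. It was 91, 98 and 54 in control and 48, 31 and 12 in oxLDL libraries, and the groups did not overlap, as for 7.69% of genes. Within replicate numbers it was lower by -0.91, -1.63 and -2.08 on the log2 scale, with a mean of -1.54 ± 0.22 (SE, blocked; adjusted p = 0.00556). Ccr2 went from 89, 65 and 73 to 57, 28 and 30, also without overlap. Its mean difference was -1.03 ± 0.18 (blocked adjusted p = 0.0142). Ccr1 was the member that was higher with oxLDL, at 1335, 812 and 1308 in control and 1548, 1085 and 2335 in oxLDL libraries, with a mean difference of 0.49 ± 0.09 (blocked adjusted p = 0.0179). These groups overlapped, and replicate 3 had the widest gap (0.84, against 0.21 in replicate 1).

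Cxcr4 and Ccrl2 showed small differences. Cxcr4 was 1682, 2697 and 2496 in control and 1501, 2265 and 1519 in oxLDL libraries, a mean difference of -0.38 ± 0.08 (blocked adjusted p = 0.0415). Ccrl2 was 1542, 2188 and 1681 against 1393, 1858 and 1009, a mean difference of -0.37 ± 0.09 (blocked adjusted p = 0.0567). Both groups overlapped, and replicate 3 again differed most, by -0.72 for Cxcr4 and -0.74 for Ccrl2. Fpr1, Fpr2, Ccr7 and Ccr3 were too low to be tested in this comparison. None of these 4 exceeded 19 in a control or oxLDL library. For reference, the scavenger receptor gene Cd36, a known target of oxidized lipids, was 32725 to 40346 in control and 53483 to 93423 in oxLDL libraries (blocked adjusted p = 0.00178).

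oxLDL+LPS was compared with LPS to ask whether loading changed the receptors of LPS-stimulated PMφs. Of the 6 members tested none was called in the fit of 6 libraries, nor was any of 12769 genes (0%), with 890 at an unadjusted p under 0.05. With the block 13.2% of genes were called, 8.75% as lower, and of the members Ccrl2 alone passed, lower. Ccrl2 was 19499, 36109 and 33674 in LPS and 12901, 31343 and 20065 in oxLDL+LPS libraries. It was lower in each replicate number, by -0.60, -0.20 and -0.75, with a mean of -0.52 ± 0.13 (blocked adjusted p = 0.0443), but the groups overlapped. Fpr2 was also lower in each number, as were 24.4% of all genes. Without replicate 2 the blocked fit also called Cxcr4 (0.70), Ccr7 (-1.05) and Fpr1 (0.24), and without replicate 1 or replicate 3 it called no member.

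The formyl peptide receptors differed between loaded and unloaded LPS-stimulated PMφs by less than the spread of the libraries. Fpr1 was 1746, 521 and 1216 in LPS and 1955, 450 and 1517 in oxLDL+LPS libraries, a difference of 0.09 ± 0.63, or ± 0.10 with the block (blocked adjusted p = 0.638). Fpr2 was 2086, 1419 and 2744 against 2036, 1299 and 2152, a difference of -0.17 ± 0.28, or ± 0.08 with the block (blocked adjusted p = 0.238). Replicate 2 was the lowest library of both genes in both groups. Cxcr4 was 38, 108 and 45 against 92, 93 and 50, and its difference of 0.40 came mostly from replicate 1 (1.25, against -0.21 and 0.15). Ccr1 (-0.14 ± 0.30) and Ccr7 (-0.60 ± 0.61) overlapped between the groups and did not pass. Ccr2 was 30, 6 and 13 in LPS and 5, 9 and 6 in oxLDL+LPS libraries and Cx3cr1 was 15, 6 and 1 against 6, 2 and 2, both too low to be tested here.

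**Figure D3:**
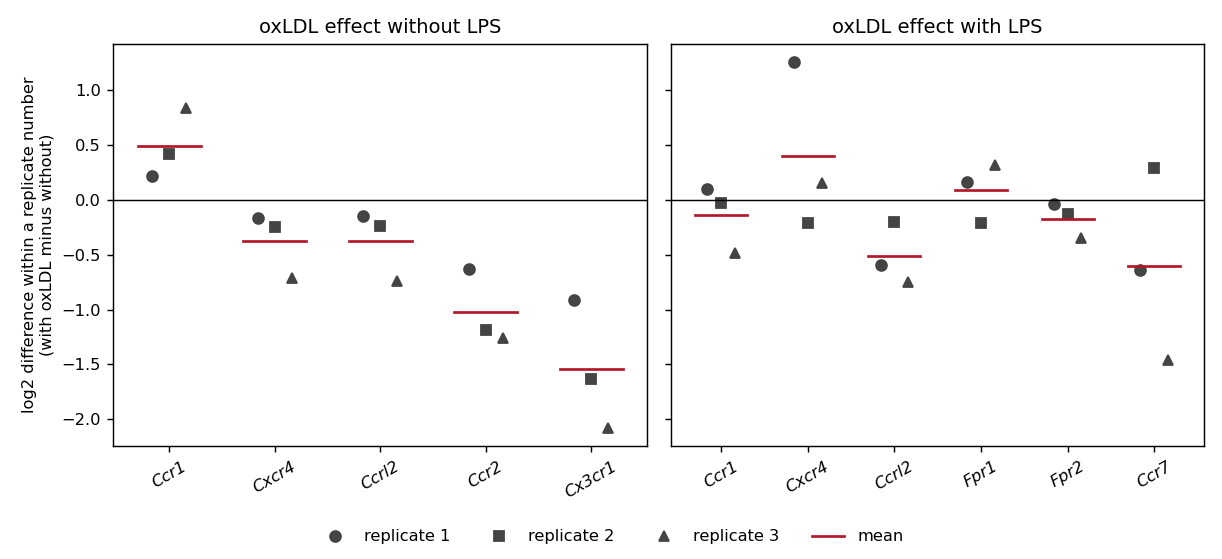
Log2 difference between the library with oxLDL and the library without it that carries the same replicate number, without LPS (left) and with LPS (right), for each receptor gene tested, with a line at the mean of the 3 numbers. Without LPS the 3 points of each gene lie on 1 side of 0, with Ccr1 above and the other 4 genes below, and with LPS they do so only for Ccrl2 and Fpr2.

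Whether the oxLDL difference itself depended on LPS was tested as an interaction over all 12 libraries. In its blocked fit the block was the replicate number within each LPS state. None of 8 members passed, with or without the block, where the blocked fit called 1.04% of 13465 genes and the other fit none, with 416 at an unadjusted p under 0.05. The smallest blocked p among the members was that of Ccr1 (unadjusted p = 0.00440, adjusted p = 0.158), whose oxLDL difference was 0.49 without and -0.14 with LPS, an interaction of -0.63 ± 0.17. Cxcr4 came next (0.77 ± 0.31, blocked adjusted p = 0.293), and without replicate 2 it passed at 1.14 (adjusted p = 0.0731). For Ccr2 the interaction was 0.07 ± 0.61 and for Ccrl2 -0.14 ± 0.17. The calls above in one LPS state and not in the other were therefore not shown to differ between the states.

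The members also differed in how far the 4 conditions accounted for their values. Between-group differences made up 99.1% of the variance of log2(normalized count + 1) over the 12 libraries for Fpr2, 97.1% for Fpr1, 96.9% for Cxcr4 and 96.3% for Ccrl2. The share was 85.6% for Ccr2 and 81.9% for Cx3cr1, 48.2% for Ccr7 and 37.7% for Ccr1. Within groups, the deviations of Ccrl2 and Fpr1 from their group means ran against each other (r = -0.81 over 12 libraries). Those of Ccrl2 and Ccr1 did so too (r = -0.79), and for Fpr1 and Fpr2 r was 0.27. Fpr1 was only 1 to 4 in control and 2 to 6 in oxLDL libraries, and Fpr2 2 to 4 and 2 to 7. Their deviations there are those of values near 0, so the coefficients with these genes say little about cells that express them. In both LPS-treated groups replicate 2 was the lowest library of both genes. Libraries of a replicate number deviated together, so all of these coefficients are descriptions without a test.

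For each member the 3 genes with the highest Pearson correlation over the 12 libraries were listed. Ccrl2 was followed most closely by H2-K1 (r = 0.9985), an MHC class I gene, then Cxcl16 and Src. Fpr2 was followed by Oasl1 (r = 0.9985), an interferon-induced gene, then Rps6ka4 and Acsl1, and Fpr1 by Ms4a6d (r = 0.9931), Zcchc2 and Scarf1. Cxcr4 was followed by Rmnd5a (r = 0.9979), Tmem144 and Galc. The likeness was weaker for Cx3cr1 (Enc1, r = 0.9593), Ccr2 (2700094K13Rik, r = 0.9579), Ccr7 (Pvrl3, r = 0.95) and Ccr1 (Pard6b, r = 0.8568). The 12 points fall into 4 conditions and share the LPS contrast, so these correlations are a description only.

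Other chemoattractant receptor genes gave a setting for these changes. Of 33 on the list 10 could be tested for LPS against control, of which 3 rose and 6 fell, against 31.4% and 30.3% of all genes. Their median log2 fold change was -1.84 (-0.000687 over all genes). Gpr183, Cxcr2, Cxcr3 and Ccr9 were under 10 in every library of their lower group and could be tested only through the other. Cmklr1, the signalling chemerin receptor, rose with LPS, with 549 to 712 in control and 2153 to 3431 in LPS libraries (2.07 ± 0.18, adjusted p = 5.03e-05), in the same direction as Ccrl2. Ptafr, the platelet-activating factor receptor, rose by a log2 fold change of 1.22, and Ccr9 by 2.13 from a low level. Gpr183, an oxysterol receptor, was 157 to 184 in control and 4 to 9 in LPS libraries (-4.67 ± 0.31, adjusted p = 1.14e-05). Cxcr2, Cxcr1 and Cxcr3, C5ar2 and C3ar1 were also lower. C5ar1, the main C5a receptor, is named as the 1 gene tested that did not pass, with a change of 0.12 ± 0.35. In oxLDL-loaded cells 11 could be tested, and the same 3 were higher and 5 of these 6 lower, Cxcr3 being too low to test. Of all genes 28.1% were called higher there and 26.3% lower. Cxcr2 and Gpr183 again passed the filter only through the oxLDL libraries, and Ccr9 only with the oxLDL+LPS libraries.

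**Figure D4:**
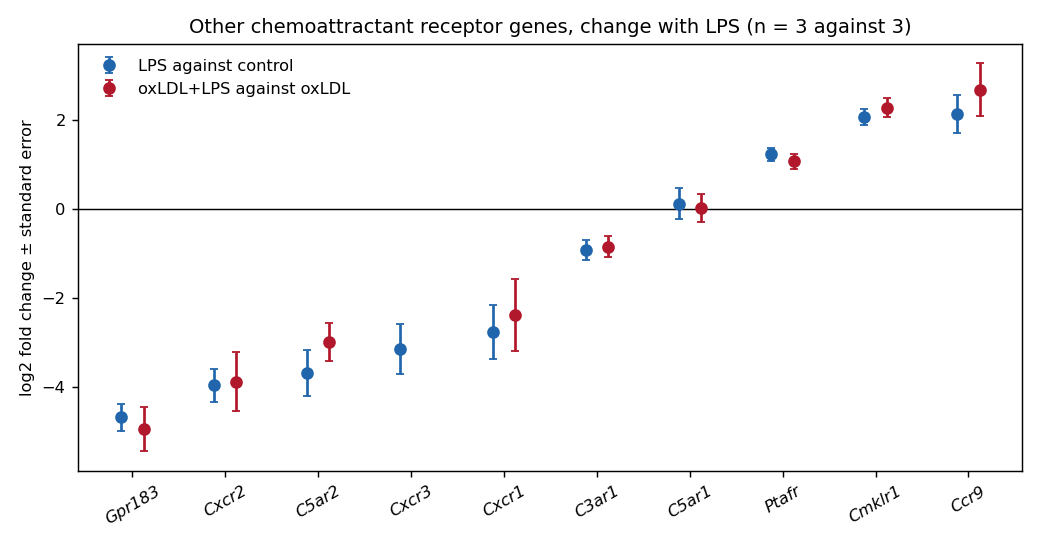
Log2 fold change with LPS, with 1 standard error, of the other chemoattractant receptor genes tested in the LPS against control comparison, in cells without oxLDL and in oxLDL-loaded cells (n = 3 against 3 libraries). Gpr183 is lowest, C5ar1 lies near 0, and Ptafr, Cmklr1 and Ccr9 are above 0 in both comparisons, and Cxcr3 has a point in the first comparison only.

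Among 19 genes for ligands of the members, 14 could be tested for LPS against control, of which 11 rose and 2 fell, against 31.4% and 30.3% of all genes (median log2 fold change 4.40). Ccl12, Ccl24 and Cx3cl1 passed the filter only with the LPS libraries, so whether they could be tested leaned on that group. Ccl4 (6.61), Ccl3 (6.93), Ccl9 (5.34) and Ccl5 (10.3), of which the last 3 are ligands of Ccr1, rose with adjusted p-values from 1.13e-06 to 1.85e-05. The Ccr2 ligands rose too: Ccl12 was listed at 0 in control and was 110 to 219 in LPS libraries, Ccl2 was 93 to 284 and 8418 to 20076, and Ccl7 was 16 to 71 and 1938 to 2452. Saa3, which can bind Fpr2, rose by 3.46, Ccl24, a Ccr3 ligand, by 3.37 and Cx3cl1, the ligand of Cx3cr1, by 2.48. The 2 that fell, named for that although their p-values were not among the 10 smallest, were Cxcl12, the ligand of Cxcr4 (-1.23 ± 0.54, adjusted p = 0.0901), and Anxa1, a ligand of Fpr2 (-0.43 ± 0.19, adjusted p = 0.0924). In oxLDL+LPS against LPS none was called in the fit of 6 libraries, and in the blocked fit 9 were lower and 1 higher, where 13.2% of all genes were called and 8.75% lower. The blocked fit called 0 genes of any kind without number 3. Ccl3 was 34668, 93916 and 104907 in LPS and 7953, 51710 and 29510 in oxLDL+LPS libraries (blocked adjusted p = 0.00649). The blocked interaction fit called 5 of the 14 ligand genes tested, all negative, where 1.04% of all genes were called. Without the block it called none.

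Of 27 genes that carry or end signals of such receptors, all tested, 14 rose and 11 fell with LPS, against 31.4% and 30.3% of all genes, or 8 and 12 with libraries rescaled to equal totals. Arrb1, which encodes an arrestin that binds phosphorylated receptors, was 3737 to 5033 in control, 286 to 380 in LPS and 403 to 904 in oxLDL+LPS libraries. Its change with LPS was -3.80 ± 0.15 (adjusted p = 9.73e-07), and it was higher in oxLDL+LPS than in LPS libraries under the block (1.01, adjusted p = 0.00805). Without the block this difference did not pass (adjusted p = 0.699). In the blocked fit 2 of the 27 genes were higher and 4 lower, where 13.2% of all genes were called. Among the others of the 10 smallest p-values, Plcb2 (-1.98), Gng2 (-1.26), Rgs2 (-2.28) and the receptor kinase gene Grk6 (-0.95) were lower with LPS, and Rgs14 (2.27), Pik3r6 (1.63), Rac2 (1.01), Rgs1 (1.69) and Gnai3 (0.58) were higher. The Rgs genes, which speed the shut-off of G proteins, thus moved both ways, with Rgs10, Rgs18 and Rgs19 also lower and Rgs16 also higher. In oxLDL-loaded cells the Rgs1 change with LPS was 0.52 (adjusted p = 0.168, or 0.0699 with the block). Rgs1 was already higher with oxLDL alone under the block (0.47, adjusted p = 0.00139), where 4.7% of all genes were called. In the blocked interaction fit Rgs1 (-1.17, adjusted p = 0.0509) and Arrb1 (1.10, adjusted p = 0.0497) passed, where 1.04% of all genes were called. Without the block neither interaction passed.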

How the data were processed

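The authors made poly(A) libraries with a directional kit, trimmed reads with Trimmomatic 0.32, aligned them with STAR 2.5.1b to mm10 (GRCm38) and counted genes with featureCounts. The deposited values behave as a signal in normalized counts, as if each library had been rescaled separately and kept as whole numbers, so no count model was used. The scaling factors (0.708 to 1.31) are estimates made from these values. Of 43278 symbols, 18273 were at 0 throughout, and 25 had been turned into dates and were left out. Genes that reached 10 in 3 or more of the libraries compared were tested as log2(value + 1) with limma 3.58.1 (R 4.3.3, trended eBayes, adjusted p under 0.1). The authors' fold changes were not used. Numbers were taken to pair libraries, since same-number deviations correlated in every pair of groups (0.234 to 0.657 over 13465 genes, other numbers at most 0.0333) and the methods describe pooled cells divided among conditions, so the blocked fit is given where it changed a call. An exact permutation test of 3 against 3 cannot go below p = 0.1. Exon lengths and positions are from GENCODE M21, and promoters from RefSeq (GRCm38.p6). Scripts were tested on simulated data. List genes are named when called in at least 1 comparison, by smallest p, up to 10 per list and comparison, with exceptions stated. The members, lists and tests were chosen with earlier results of these data known.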

Additional observations from a re-analysis of the deposited data

How the results depend on the processing

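Of 576 alternative values of the members, 518 kept their direction and side of the threshold, 32 newly passed, 1 (Ccr7) no longer passed and 25 changed sign, each of those in a result that was not called. Beyond the calls given with the results, the replicate block changed none among the members. With a value of at least 10 required in every library, fewer members could be tested and 2 passed in each LPS comparison. Of all genes, 7176 were then called in LPS against control. With the replicate number as a block, the genes called went from 0 to 599 (oxLDL against control) and 1680 (oxLDL+LPS against LPS). The members called there went from 0 to 5 and 1. With the number within each LPS state as the block, the interaction went from 0 to 140 genes. All 12 libraries in one fit called 29 genes in oxLDL+LPS against LPS.

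Leaving out 1 library or number can drop genes such as Fpr1 below the filter of 3 libraries, so fewer members were tested. Members called then ranged from 4 to 7 (3 to 5 with the block) for LPS against control, 4 to 5 (2 to 3) for oxLDL+LPS against oxLDL, 0 (1 to 5) for oxLDL against control, 0 (0 to 4) for oxLDL+LPS against LPS and 0 (0 to 1) for the interaction. Genes called ranged from 6866 to 7678 in LPS against control, or 6566 to 8074 with the block. They ranged from 0 to 91 in oxLDL+LPS against LPS and 0 to 6 in the interaction, the highest of these without oxLDL+LPS replicate 2. With the block and without numbers 1, 2 and 3 in turn they were 235, 129 and 1283 for oxLDL against control and 70, 2945 and 0 for oxLDL+LPS against LPS, and for the interaction they were at most 760, without number 2.

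The sign changes all came from leaving out libraries, and the cause was not tested. In oxLDL+LPS against LPS, values without 1 library ranged from -0.44 to 0.14 for Ccr1, -1.07 to 0.070 for Ccr7, -0.40 to 0.73 for Fpr1 and -0.42 to 0.058 for Fpr2. In the interaction they ranged from -0.45 to 0.62 for Ccr2, -0.46 to 0.18 for Ccrl2 and -1.09 to 0.045 for Fpr1. With the block and without number 3, Ccr1 was 0.035 in LPS against control and 0.036 in oxLDL+LPS against LPS, Fpr1 was -0.024 in the latter, and the interaction was -0.017 for Ccr2 and 0.067 for Ccr7. With the block and without number 1, Cxcr4 was -0.032 in oxLDL+LPS against LPS and the Ccrl2 interaction 0.010, and without number 2 the Ccr2 interaction was -0.74. Depth limited Ccr3 throughout, and Ccr2 and Cx3cr1 in LPS-treated cells.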
